A study of Homo sapiens with 5 samples.

Results

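The 10 long noncoding RNA genes GAS5, SNHG1, SNHG3, SNHG5, SNHG6, SNHG7, SNHG8, SNHG12, SNHG15 and SNHG16 were examined for binding of MYC and HSF1 in OVCAR8 cells. They were taken by name as hosts of small nucleolar RNAs (snoRNAs) and are 10 of 18866 lncRNA genes, and of 38899 protein-coding and lncRNA genes in all, of GENCODE 44 on GRCh38. Every called peak that reached into the stretch from 5 kb upstream of a gene to its end was collected, which gave windows of 8943 to 118259 bp. OVCAR8 is an established ovarian carcinoma cell line that the study chose because MYC and HSF1 are both amplified in it. CUT&RUN, in which an antibody directs a nuclease to a protein on chromatin and the released DNA is sequenced, was done on proliferating cells without any treatment, at 500000 cells per reaction after 1 minute in 1% formaldehyde. The groups were 2 HSF1 libraries and 2 MYC libraries, each with its own peak list, and 1 IgG control, which was used through the calls of the other 4. The labels do not say whether the 2 libraries of an antibody came from separate cultures, so the spread between them may be technical.

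A snoRNA host gene is transcribed as 1 precursor, from which splicing releases the introns that hold the snoRNAs. Box C/D snoRNAs guide 2′-O-methylation and box H/ACA snoRNAs guide pseudouridylation of ribosomal RNA, while the spliced host RNA is often removed by nonsense-mediated decay. Many host transcripts, like ribosomal protein mRNAs, begin with a C and a run of pyrimidines, the terminal oligopyrimidine start. MYC with its partner MAX prefers the E-box CACGTG and is known for raising ribosome production, and HSF1 binds heat shock elements of alternating GAA units at chaperone genes. A peak list holds positions and strengths of binding but no RNA, so the cell type could not be checked against marker expression, and what the binding does to these genes was not measured.

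The E-box is shown because it is the motif that MYC prefers, and 6 genes had at least 1 inside the promoter stretch that the MYC peaks of both libraries shared. Of all stretches of 369 to 2476 bp shared by a peak of each MYC list over the genome, whose median length of 639 bp is below that of the 10 genes, 32.8% held it. For these genes the copy nearest to a MYC summit, the position of highest signal in a peak, is shown with 20 bases on either side, read from GRCh38 in the direction of transcription, with the E-box in capitals.
GAS5 (chr1:173868168-173868213, minus strand): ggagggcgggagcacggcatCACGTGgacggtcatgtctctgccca
SNHG3 (chr1:28507080-28507125, plus strand): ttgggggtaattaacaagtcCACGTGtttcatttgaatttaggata
SNHG5 (chr6:85679272-85679317, minus strand): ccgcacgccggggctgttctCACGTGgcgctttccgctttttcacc
SNHG7 (chr9:136728281-136728326, minus strand): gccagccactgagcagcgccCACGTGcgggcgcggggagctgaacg
SNHG8 (chr4:118278937-118278982, plus strand): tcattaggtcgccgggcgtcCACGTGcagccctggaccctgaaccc
SNHG15 (chr7:44986399-44986444, minus strand): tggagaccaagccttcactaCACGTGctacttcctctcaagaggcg
The E-box nearest to a summit lay 34 bp from it at SNHG7, 41 bp at SNHG15, 69 bp at SNHG8, 110 bp at SNHG5, 127 bp at SNHG3 and 135 bp at GAS5. Each distance is to the nearer summit of the MYC lists, and the summit of the other list lay farther from the same E-box. No CACGTG was found in the shared stretch of SNHG1, SNHG6, SNHG12 or SNHG16. The variant CACGCG, on either strand, was found there and also at SNHG5, SNHG7 and SNHG15. Of all shared stretches of that length range over the genome, 36.8% held CACGCG.

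GAS5 was the 1 gene with an HSF1 peak in both HSF1 lists, and all 4 lists overlapped there over 430 bp. The first 300 bp of that stretch in genome order hold both HSF1 summits and are shown on the strand of the gene, with the E-box in capitals.
GAS5 (chr1:173868133-173868432, minus strand): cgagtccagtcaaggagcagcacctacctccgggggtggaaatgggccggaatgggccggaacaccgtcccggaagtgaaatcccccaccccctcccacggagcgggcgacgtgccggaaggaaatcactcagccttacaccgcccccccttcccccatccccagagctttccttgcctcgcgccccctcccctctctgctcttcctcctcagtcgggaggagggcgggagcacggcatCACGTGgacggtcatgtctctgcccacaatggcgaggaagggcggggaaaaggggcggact
The E-box lay 29 bp from the summit of HSF1 replicate 1 and 4 bp from that of HSF1 replicate 2. Of all HSF1 summits, 3.38% in replicate 1 and 3.32% in replicate 2 had CACGTG within 100 bp. No heat shock element of 3 units, which reads GAA, TTC and GAA with 2 free bases between the units on either strand, occurred in either HSF1 peak of GAS5. The nearest such element was 1009 bp from an HSF1 summit, upstream of the gene and outside all 4 peaks. Of all HSF1 summits, 6.51% in replicate 1 and 5.97% in replicate 2 had such an element within 100 bp.

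Transcript starts were compared as well, since the oligopyrimidine start is the feature for which these hosts are known. The start shared by the most annotated transcripts of a gene, called its most annotated start, is shown with 10 bases before it and 20 from it on, and the unbroken pyrimidine run that begins at the start is in capitals.
GAS5 (chr1:173867970-173867999, minus strand): accatactgtCTTTTCgaggtaggagtcga
SNHG1 (chr11:62855866-62855895, minus strand): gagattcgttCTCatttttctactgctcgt
SNHG7 (chr9:136728165-136728194, minus strand): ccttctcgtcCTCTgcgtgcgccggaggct
SNHG8 (chr4:118278748-118278777, plus strand): aggcctcggcCTTTCacattcgggaagcgt
SNHG12 (chr1:28581854-28581883, minus strand): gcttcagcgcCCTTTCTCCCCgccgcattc
SNHG15 (chr7:44986649-44986678, minus strand): cgaggtgcgcggcgcagcgcgcggcgtcag
This start was that of 61 of 89 transcripts at SNHG5, 50 of 91 at GAS5 and 6 of 10 at SNHG7, but of fewer than 40% elsewhere, down to 2 of 14 at SNHG15. SNHG3 has 3 transcripts with a start each, of which the first was taken. A C followed by at least 4 more pyrimidines stood at this start in 4 of the 10 genes, namely GAS5, SNHG6, SNHG8 and SNHG12, against 3.10% of all protein-coding and lncRNA genes and 13.7% of the 256 protein-coding genes that host a snoRNA. SNHG12 had the longest run of those shown, 11 bases, GAS5 had 6 and SNHG8 had 5. SNHG7 and SNHG1 had shorter runs of 4 and 3 bases. SNHG15 had none, and neither did SNHG3, SNHG5 and SNHG16, whose starts are not shown. The annotated start can differ from the start used in OVCAR8 cells, which was not measured.

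MYC peaks were found at all 10 genes in both MYC lists. A peak in the gene window was called for 10 of 10 genes in MYC replicate 1 and for 10 of 10 in MYC replicate 2, where 46.9% and 33.4% of all 38899 genes had one, and 32.7% had one in both lists. HSF1 peaks were called at fewer of these genes than MYC peaks, at 4 of 10 in HSF1 replicate 1 and 1 of 10 in HSF1 replicate 2. The share of all genes in these lists was 12.3% and 9.13%, and that of lncRNA genes 7.83% and 5.75%. In both HSF1 lists it was 1 of 10 genes, against 5.72% of all genes and 3.5% of lncRNA genes. The all-gene share includes many lncRNA genes that a cell line may not transcribe, and the genes here were chosen by name with earlier results of these data known, so these shares are given side by side without a test. The HSF1 lists were called at a p-value threshold of 1e-04 and the MYC lists at 1e-10, and the comparison of 2 lists with 2 lists of another antibody and threshold is a description.

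MYC peaks were found at all 10 promoters. With a promoter peak defined as a summit within 1 kb of the start of any transcript of the gene, all 10 genes had a MYC promoter peak in both lists, against 26.7% of all genes and 13.3% of lncRNA genes. The 10 genes have 3 to 26 annotated starts each, any of which counts here. With the start of the gene record alone, 8 of the 10 had a MYC promoter peak in both lists. With summits within 250 bp of any start, 6 of the 10 did. The share of all genes was not counted for either setting. GAS5 alone had an HSF1 promoter peak in both HSF1 lists, against 2.38% of all genes. Of the 30 MYC peaks in the windows, 18 were from replicate 1 and 12 from replicate 2, and the 5 outside promoters were all from replicate 1, the list with 25646 peaks in all against 13290 in the other. The map of peaks around the transcript starts shows that 9 of 10 genes had a MYC peak across the most annotated start in both lists. At the other one, SNHG3, the peak of replicate 2 covered 2 of the 3 annotated starts but not the first.

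**Figure D1:**
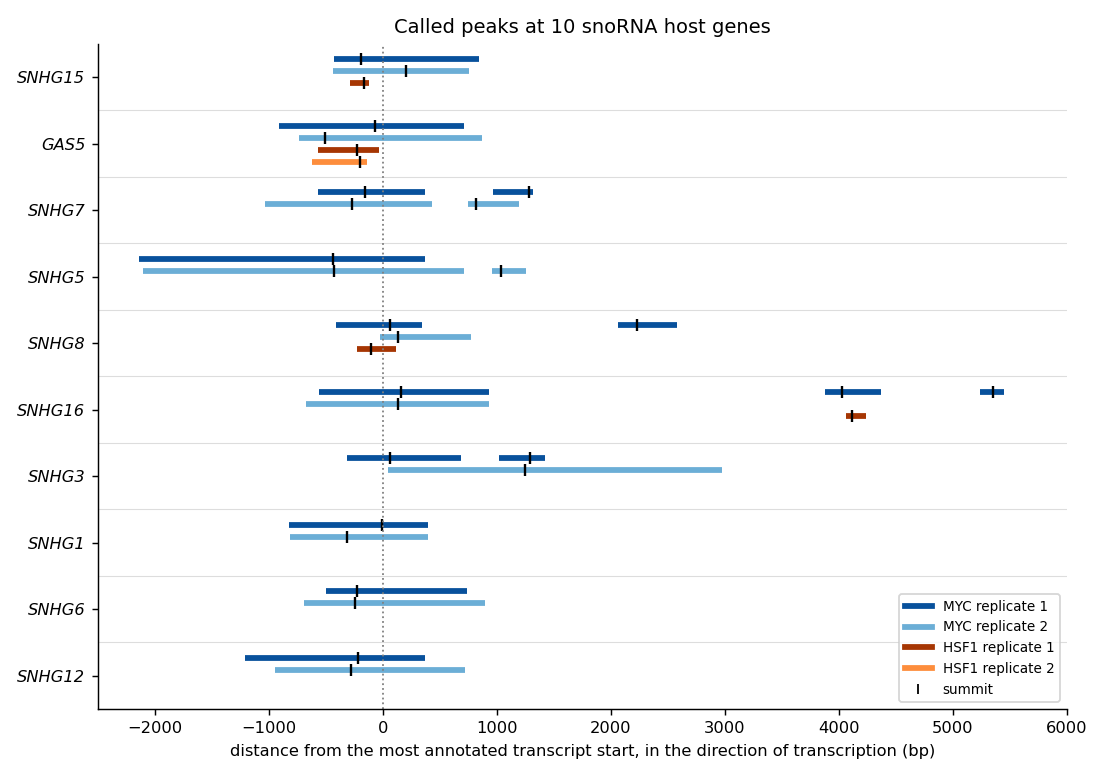
Peaks called in each of the 4 lists at the 10 genes, drawn by distance in bp from the most annotated transcript start in the direction of transcription, with bars for peak extents and ticks for summits. MYC peaks cover the start in both replicates at 9 of the 10 genes, SNHG3 being the exception, and HSF1 peaks appear at 4 genes, each inside a MYC peak of the same replicate number. Another 3 MYC peaks of replicate 1, inside SNHG5 and SNHG16, lie beyond the right edge.

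The strength of the MYC peaks varied 4.20-fold among the genes. The mean over both MYC lists of the fold enrichment over IgG at the strongest promoter peak ran from 9.04 at SNHG12 to 37.9 at SNHG15, with a median of 18.3 over the 10 genes, against 14.2 over the 10381 genes with a promoter peak in both MYC lists. The mean of 6 of the 10 genes was above that value, in the order SNHG15, GAS5, SNHG7, SNHG5, SNHG8 and SNHG16. Those of SNHG3, SNHG1, SNHG6 and SNHG12 were below it.

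**Figure D2:**
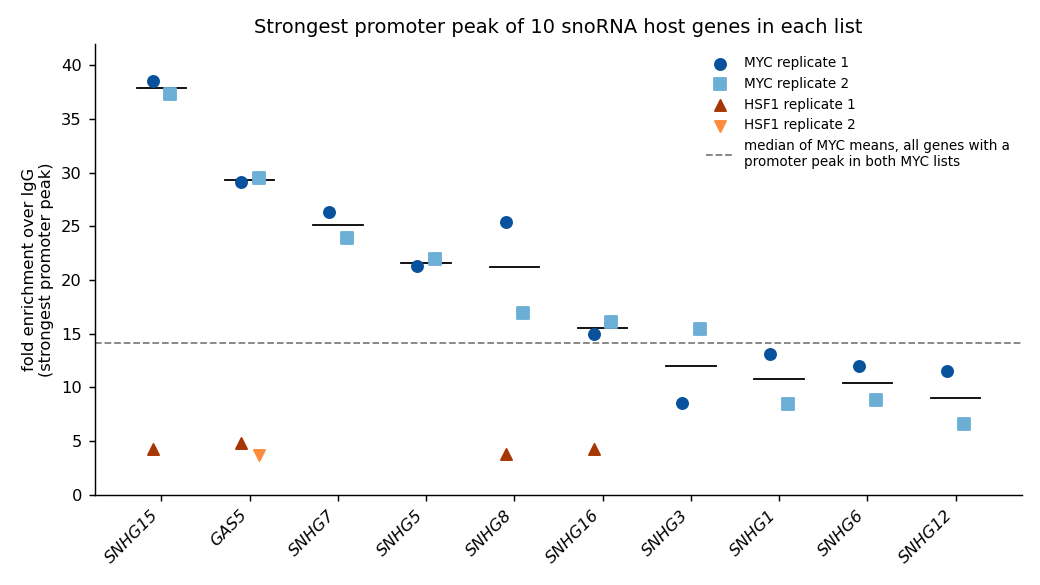
Fold enrichment over IgG of the strongest promoter peak of each gene in each list, with 1 point per list, a black bar for the mean of the 2 MYC lists and a dashed line for the median of that mean over all genes with a promoter peak in both MYC lists. SNHG15 and GAS5 stand highest in both MYC lists, and all HSF1 points lie between 3.74 and 4.81, below every MYC point.

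Of the 5 genes whose snoRNAs are mostly or all of the box C/D class, GAS5 and SNHG5 had the highest mean MYC fold enrichment and SNHG1 and SNHG6 the lowest. GAS5, the growth arrest-specific transcript whose introns hold SNORD74 to SNORD81, SNORD44, SNORD47 and the box H/ACA snoRNA SNORA103, is transcribed from the minus strand at chr1:173858559-173868882. Its MYC peak had a fold enrichment of 29.1 in replicate 1 and 29.5 in replicate 2 (mean 29.3 ± 0.284, SD, n = 2) and a pileup, the number of fragments stacked at the summit, of 54 and 53. The levels of the 2 lists were nearly the same, but the summits were 446 bp apart. This was the widest gap among the 10 genes where overlapping promoter peaks of the 2 lists are compared. The peaks covered SNORD74 in both lists. The protein-coding gene ZBTB37 starts on the opposite strand 26 bp and 104 bp from these 2 summits, so the peak cannot be assigned to 1 of the 2 genes.

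SNHG5, host of SNORD50A and SNORD50B on the minus strand at chr6:85650491-85678932, had the highest pileup of the 10 genes. Its fold enrichment was 21.3 in replicate 1 and 22.0 in replicate 2 (mean 21.6 ± 0.469, SD, n = 2), and its pileup was 96 and 140. The 2 summits were 10 bp apart, 437 and 427 bp upstream of the most annotated start, and the peaks shared 2476 bp. Replicate 1 had 2 more peaks inside the gene, with a fold enrichment of 14.2 and 13.5, and replicate 2 had 1 over SNORD50B, with 8.76. None of these 3 was called in the other MYC list.

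SNHG16, host of SNORD1A, SNORD1B and SNORD1C on the plus strand at chr17:76557727-76670985, is the longest of the genes. At the main start its fold enrichment was 10.5 in replicate 1 and 16.1 in replicate 2, with a pileup of 47 and 76 and summits 31 bp apart. In replicate 1 a second promoter peak, 4025 bp downstream of the most annotated start, near other annotated starts and over SNORD1A, was stronger at 14.9. The strongest peaks of the 2 lists were thus different peaks, and the mean of 15.5 ± 0.797 (SD, n = 2) joins them. Replicate 1 also had peaks inside the gene with a fold enrichment of 9.34 and 11.5, the latter 47 bp from a start of ST6GALNAC2, a sialyltransferase gene.

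SNHG1 and SNHG6 had weaker peaks that differed more between the lists. SNHG1, which holds SNORD22 and SNORD25 to SNORD31 on the minus strand at chr11:62851978-62855953, had a fold enrichment of 13.1 in replicate 1 and 8.44 in replicate 2 (mean 10.8 ± 3.30, SD, n = 2) with a pileup of 47 and 44. Its pileup was thus nearer to that of GAS5 than its fold enrichment was. The start of SLC3A2, the heavy chain of amino acid transporters, lay 109 and 33 bp from the 2 summits, on the opposite strand. SNHG6, host of SNORD87 on the minus strand at chr8:66920561-66926398, had 12.0 in replicate 1 and 8.87 in replicate 2 (mean 10.4 ± 2.19, SD, n = 2), with summits 11 bp apart.

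Among hosts of box H/ACA snoRNAs, SNHG15 had the highest MYC fold enrichment of all 10 genes. SNHG15, host of SNORA9 on the minus strand at chr7:44983019-44986961, had a fold enrichment of 38.5 in replicate 1 and 37.3 in replicate 2 (mean 37.9 ± 0.831, SD, n = 2) and a pileup of 60 and 75. Its fold enrichment in both lists was above that of every other gene here, while its pileup was below that of SNHG5 in both. The summits were 396 bp apart, 191 bp upstream and 205 bp downstream of the most annotated start. SNHG7, host of SNORA17A and SNORA17B on the minus strand at chr9:136721366-136728184, followed with 26.4 in replicate 1 and 23.9 in replicate 2 (mean 25.2 ± 1.72, SD, n = 2). Both lists also held a weaker second peak inside SNHG7, with 7.72 in replicate 1, where it covered SNORA17A, and 7.24 in replicate 2.

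SNHG8, host of SNORA24 on the plus strand at chr4:118278703-118285316, had a fold enrichment of 25.4 in replicate 1 and 16.9 in replicate 2 (mean 21.2 ± 6.01, SD, n = 2). Its summits were 67 bp apart and lay 66 and 133 bp downstream of the start, and replicate 1 had another peak inside the gene with 9.53. SNHG3, host of SNORA73A and SNORA73B on the plus strand at chr1:28505980-28510892, behaved differently. Replicate 1 had 1 peak at the start, with 7.91, and 1 over SNORA73A, with 8.54. Replicate 2 had a single peak of 2938 bp over both snoRNAs, with 15.5 and a summit 41 bp from the second summit of replicate 1. In replicate 2 SNHG3 thus had no MYC peak across its first annotated start, and its mean of 12.0 ± 4.90 (SD, n = 2) comes from summits downstream, in the snoRNA-bearing stretch. Its start lies beside one of RCC1, the nucleotide exchange factor of Ran, 3 bp from the summit of the start peak of replicate 1.

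SNHG12, like GAS5, holds snoRNAs of both classes, SNORA16A, SNORA44, SNORA61 and SNORD99, on the minus strand at chr1:28578538-28583132. It had the lowest mean MYC fold enrichment of the 10 genes, with 11.5 in replicate 1 and 6.59 in replicate 2 (mean 9.04 ± 3.47, SD, n = 2) and a pileup of 36 and 24. In replicate 1 the strongest peak of SNHG3 was lower, with a fold enrichment of 8.54 and a pileup of 18. The summits of SNHG12, 59 bp apart, lay 220 and 279 bp upstream of its most annotated start. The 3 CACGCG variants in its shared stretch were the most of any of the 10 genes.

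By fold enrichment, the order of the genes held at the top and not below it. The rank of a peak is given as the percentage of peaks of its own list with a lower fold enrichment, and the median over the 10 genes of the mean rank in the 2 MYC lists was 83.7%. This rank counts every peak of a list, not only the strongest promoter peak of each gene. Of the 10381 genes with a promoter peak in both MYC lists, 99% had a lower mean than SNHG15, 96.4% than GAS5 and 92.5% than SNHG7. The share was 85.9% for SNHG5, 84.9% for SNHG8 and 59.4% for SNHG16. It was 31.6% for SNHG3, 20.7% for SNHG1, 17.6% for SNHG6 and 7.27% for SNHG12. SNHG15 ranked at 99.1% and 99.7%, GAS5 at 96.6% and 98.9%, and SNHG7 at 94.9% and 96.9%, and these 3 were above 90% in both lists. SNHG6 and SNHG12 were below 50% in both, SNHG12 at 44.3% in replicate 1 and 6.37% in replicate 2. SNHG3 moved most, from 16.5% to 82.9%. SNHG1 depended on the measure, with a mean rank of 41.2% by fold enrichment and 85.8% by pileup. The order at the top depended on the measure too. By pileup the mean rank was 99.3% at SNHG5, 95.4% at SNHG15, 91.1% at GAS5, 88.9% at SNHG8 and 85.8% at SNHG7. By −log10 p-value it was 98.6% at SNHG5, 98.3% at SNHG15, 95.6% at GAS5 and 92.4% at SNHG7. The higher value of the 2 lists was 1.01 to 1.81 times the lower, with a median of 1.23 over the 10 genes and 1.40 over all genes with a promoter peak in both lists. By this spread GAS5 and SNHG7 did not overlap with SNHG15 or with each other, while SNHG8, whose 2 values lay furthest apart, overlapped with SNHG7 and enclosed both values of SNHG5. The ranges of SNHG1, SNHG3, SNHG6 and SNHG12 overlapped.

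**Figure D3:**
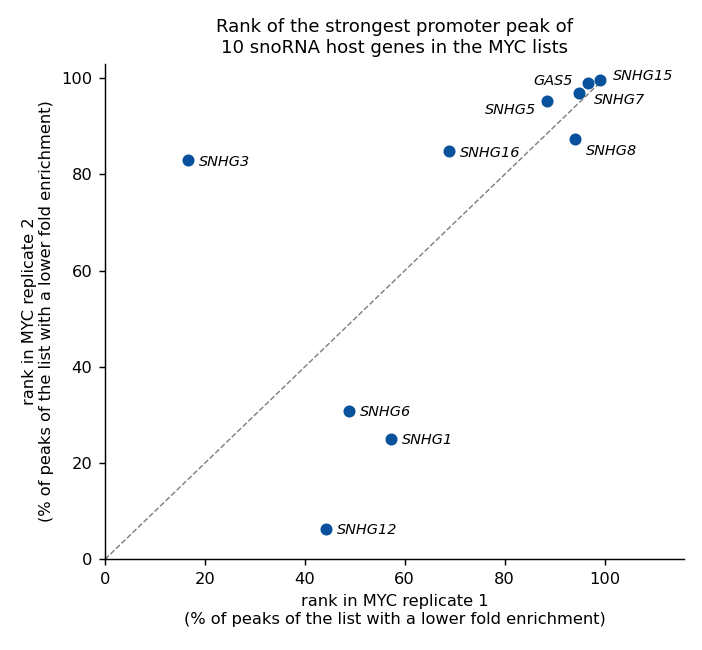
Rank of the strongest promoter peak of each gene in MYC replicate 1 (horizontal) and MYC replicate 2 (vertical), as the percentage of peaks of that list with a lower fold enrichment, with a dashed line for equal ranks. SNHG15, GAS5 and SNHG7 lie above 90% in both lists, SNHG6 and SNHG12 lie below 50% in both, and SNHG3 lies far from the line, at 16.5% and 82.9%.

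Replicate 1 was the higher of the 2 MYC lists at 6 of the 10 genes, and at 81.0% of all genes with a promoter peak in both. GAS5, SNHG3, SNHG5 and SNHG16 were higher in replicate 2. For overlapping promoter peaks of the 2 lists, the summits were within 100 bp of each other at 6 genes, with a median distance of 63 bp over all 10. At SNHG16 these were not the strongest peaks of both lists. The summits of the strongest peaks lay upstream of the most annotated start in both lists at GAS5, SNHG1, SNHG5, SNHG6, SNHG7 and SNHG12.

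The snoRNA genes themselves were mostly outside the peaks. The 10 genes hold 36 snoRNA genes in RefSeq, and 8 of these lay under a MYC peak in at least 1 list. MYC peaks covered a snoRNA in both lists at 3 genes, SNORD74 in GAS5, SNORD25 in SNHG1 and SNORA73A in SNHG3. The peaks over SNORD74 and SNORD25 also spanned the most annotated start of their host, and those over SNORA73A did not reach the first start of SNHG3.

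HSF1 peaks were weak wherever they were called. GAS5 had a fold enrichment of 4.81 in HSF1 replicate 1 and 3.74 in HSF1 replicate 2 (mean 4.28 ± 0.756, SD, n = 2), with a pileup of 9 and 8, and both were in the lower part of their lists, at 43.3% and 10.4%. SNHG15, SNHG16 and SNHG8 had an HSF1 peak in replicate 1 alone, with a fold enrichment of 4.29, 4.28 and 3.80 and a pileup of 6, 8 and 11. No HSF1 peak was called at SNHG1, SNHG3, SNHG5, SNHG6, SNHG7 or SNHG12 in either list. The −log10 p-values of the 5 HSF1 peaks did not exceed 6.65, while the lowest of the 30 MYC peaks was 14.1, so no HSF1 peak here would pass the threshold of the MYC lists. A gene without a peak had none that passed the threshold at this depth, which does not show that HSF1 was absent.

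Each of these HSF1 peaks lay wholly within a MYC peak of the same replicate number. HSF1 and MYC peaks overlapped at 4 genes in the replicate 1 lists, against 9.72% of all genes, and at 1 gene in the replicate 2 lists, against 5.01%. Such overlap was common where HSF1 had a peak at all. It was seen at 3782 of the 4792 genes with an HSF1 peak in replicate 1, and at 1949 of 3552 in replicate 2. The summits of the 2 factors were 28 bp apart at SNHG15, 95 bp at SNHG16, 164 bp at GAS5 and 169 bp at SNHG8 in replicate 1, and 307 bp at GAS5 in replicate 2. SNHG16 differed from the other 3 in that the overlap was at the downstream peak over SNORD1A and not at the main start. The genes with an HSF1 peak in replicate 1 were 4 of the 6 with the highest mean MYC fold enrichment, and SNHG7 and SNHG5, also among these 6, had none.

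**Figure D4:**
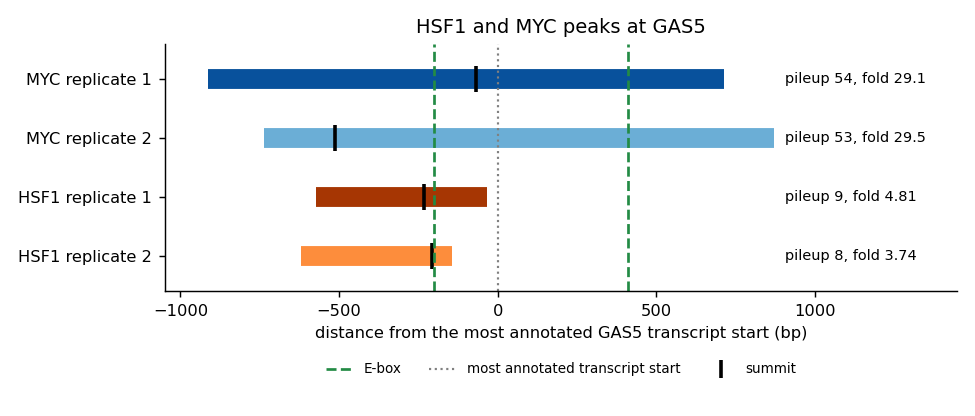
Peaks at GAS5 in the 4 lists by distance in bp from the most annotated start in the direction of transcription, with bars for peak extents, black ticks for summits and green dashed lines for E-boxes. Both HSF1 peaks, of pileup 9 and 8, lie upstream of the start and inside both MYC peaks, of pileup 54 and 53, and an E-box lies 29 and 4 bp from the HSF1 summits.

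Motifs were counted on both strands within 100 bp of the summits. CACGTG was this near the summit at the strongest promoter peak of 1 gene, SNHG7, in MYC replicate 1 and of 2 genes, SNHG8 and SNHG15, in MYC replicate 2, where 6.74% and 6.82% of all summits of these lists had it. Across the whole stretches shared by the MYC peaks of both lists, 6 genes had 9 copies of CACGTG and 7 genes had CACGCG, which is CGCGTG on the other strand. The 10 stretches had a median length of 1223.5 bp, and the 6814 stretches of 369 to 2476 bp shared by the 2 lists over the genome had a median of 639 bp. Of these 6814, 32.8% held CACGTG and 36.8% CACGCG. Per kb, the stretches of the 10 genes held 0.744 copies of CACGTG and 0.826 of CACGCG, against 0.557 and 0.776 over all 6814. GAS5, SNHG5 and SNHG15 had 2 copies of CACGTG each, and SNHG3, SNHG7 and SNHG8 had 1. With 1 stretch taken per gene, other overlapping peaks were left out. These were the weaker peaks inside SNHG7 and the replicate 1 peak at the start of SNHG3, each with 1 CACGTG. SNHG5, SNHG7 and SNHG15 had both forms.

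The heat shock element of 3 units was in none of the 5 HSF1 peaks of the 10 genes, and so within 100 bp of none of their summits inside the peaks. Most HSF1 summits lacked it too. Of all summits, 6.51% and 5.97% had it within 100 bp in HSF1 replicates 1 and 2. An element of 2 units (GAANNTTC or TTCNNGAA) was in the HSF1 peaks of SNHG8 and SNHG16 and within 100 bp of the summit at 1 of them, SNHG16, against 23.9% of all summits of HSF1 replicate 1. The element of 3 units occurred once under the shared MYC stretches, at SNHG7, where no HSF1 peak was called. RefSeq promoters of 300 bp (GRCh38.p14) were matched for 8 of the 10 genes, and 1 of these 8, that of SNHG7, held CACGTG, against 7.26% of 35116 promoters. The RefSeq promoter of GAS5, which lies upstream of the start used here, held the 3-unit element described above, against 0.490% of promoters.

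Some promoters were shared with another gene. A start of another protein-coding or lncRNA gene lay within 1 kb of a MYC promoter summit at GAS5 (ZBTB37), SNHG1 (SLC3A2), SNHG3 (RCC1), SNHG5 (ENSG00000271793) and SNHG16 (ENSG00000267546). At SNHG5 this start was 452 and 442 bp from the summits, and at SNHG16 it was 244 and 213 bp away. The strongest promoter peak of ZBTB37 was the GAS5 peak itself in all 4 lists, and in both MYC lists that of ENSG00000271793 was the SNHG5 peak and that of ENSG00000267546 the peak at the main start of SNHG16. These peaks cannot be assigned to 1 gene of each pair. SLC3A2 and RCC1 had stronger MYC peaks at other starts of their own, with a fold enrichment of 21.9 and 16.8 at SLC3A2 and of 11.5 and 18.5 at RCC1 in replicates 1 and 2. SNHG6, SNHG7, SNHG8, SNHG12 and SNHG15 had no such neighbor at their promoter peaks.

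The other genes of the snoRNA pathway were compared with these hosts by the same windows. Of 20 further genes, ZFAS1 and the other SNHG genes, 11 had a MYC peak in both lists and 1 an HSF1 peak in both lists, and the median of the mean MYC fold enrichment over the 11 was 20.2. ZFAS1, host of SNORD12 snoRNAs, had the strongest peak with 53.2 and 49.3, and SNHG26 had 28.2 and 30.9 and SNHG10 28.8 and 26.0. SNHG15, the highest of the 10 genes, lay below ZFAS1 and above the rest of that list. Of 75 other lncRNA genes that hold a snoRNA in GENCODE, a list that includes some of those 20, 25 had a MYC peak in both lists, and of 256 protein-coding snoRNA hosts 162 (63.3%) did. The share among all lncRNA genes was 19.2% and among all protein-coding genes 45.4%.

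The proteins that bind snoRNAs had MYC peaks in both lists at all 8 core genes. In the box C/D core, the fold enrichment in replicates 1 and 2 was 37.2 and 49.1 at NOP56 and 33.3 and 30.0 at NOP58, the scaffold proteins, 17.3 and 12.6 at SNU13, which binds the RNA first, and 10.3 and 9.60 at FBL, the methyltransferase. In the box H/ACA core it was 27.7 and 35.1 at DKC1, the pseudouridine synthase, 19.7 and 17.8 at NHP2, 20.9 and 12.1 at GAR1, and 15.4 and 8.16 at NOP10. NOP58 was the 1 core gene with HSF1 peaks in both lists, with 9.17 and 16.5, above those of GAS5. Of 9 snoRNP assembly factors 7 had a MYC peak in both lists and 1 an HSF1 peak in both, and of 10 factors of nonsense-mediated decay 7 and 1 did. Among all protein-coding genes 45.4% had a MYC peak and 7.81% an HSF1 peak in both lists.

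**Figure D5:**
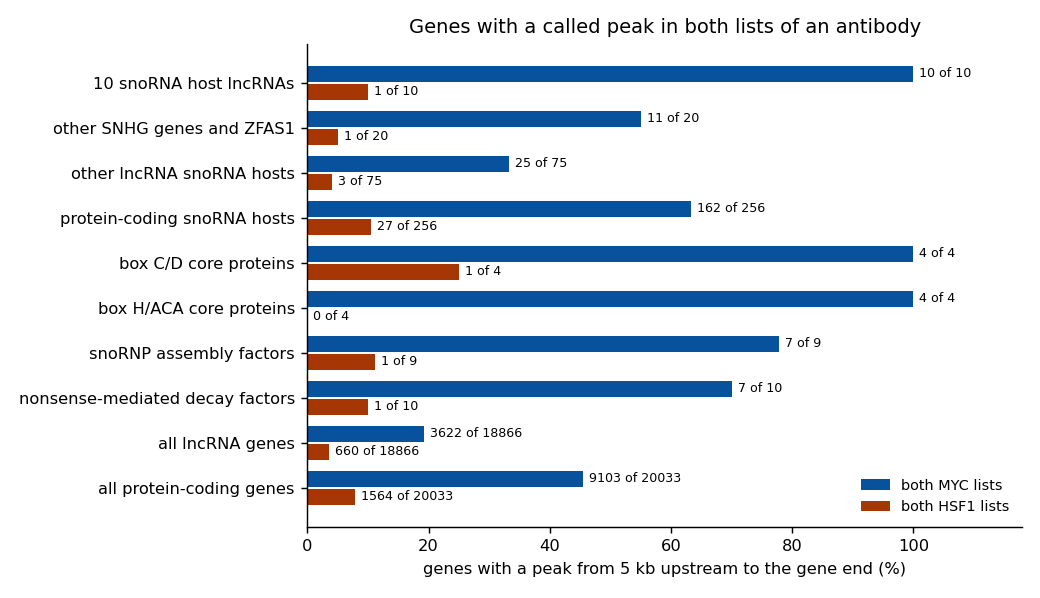
Percentage of genes with a peak from 5 kb upstream to the gene end in both MYC lists (blue) and in both HSF1 lists (red-brown), with counts beside the bars. The 10 snoRNA host lncRNAs and the 8 core protein genes reach 100% for MYC, against 19.2% of all lncRNA genes and 45.4% of all protein-coding genes, and HSF1 stays at 25% or lower in every list shown.

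The lncRNA genes whose 4 values lay nearest to the median of the 10 hosts were ENSG00000289236, TRIM8-DT and ENSG00000214248, at a Euclidean distance of 0.0119, 0.0357 and 0.0366 on the log2(fold enrichment + 1) scale over the 4 lists. Their MYC fold enrichment was 18.0 and 16.5, 17.5 and 16.7, and 18.3 and 16.7, and none had an HSF1 promoter peak. Likeness over 4 values says only that the peaks were of similar strength.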

How the data were processed

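The 4 deposited peak lists of OVCAR8 CUT&RUN, 2 for HSF1 and 2 for MYC, were used, all of which the authors had called against a single IgG library that the headers name as IgG replicate 2 and the labels list without a number. The authors aligned trimmed reads to GRCh38 with Bowtie 2 and called peaks per library with MACS 2.2.9.1 (p-value threshold 1e-04 for HSF1 and 1e-10 for MYC), keeping 1 copy of duplicate fragments and not pooling replicates. For each peak the deposited values were the fold enrichment (a ratio to the local IgG background), the pileup (the signal where the peak is highest) and the −log10 p-value. A column of −log10 q-values was not used. Depth after filtering was 8265647 to 10084407 fragments for the antibodies and 9306942 for IgG, which limits what could be called. Peak lists allow no count test, so the spread between 2 lists per antibody is the error given.

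Peaks were joined to GENCODE 44 genes in Python 3.11.15 with pandas 2.3.3, numpy 2.4.6 and pysam 0.24.0, with 1 bp of overlap, and plotted with matplotlib 3.10.9. Window, promoter and motif steps were tested on simulated data. snoRNA positions came from RefSeq for the 10 genes, since the GENCODE copy used here lists none inside GAS5. Members and lists were chosen with earlier results of these data known. Named genes are the 10 hosts, the core protein genes, the 3 further SNHG or ZFAS1 genes with the strongest MYC promoter peaks, the 3 most alike lncRNA genes and neighbors within 1 kb of a summit. The lists of an antibody shared 8 (MYC) and 2 (HSF1) peaks with the same ends, so none is a copy. The closing part gives the effect of 20 other settings chosen at the start and 2 added after the data were seen.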

Additional observations from a re-analysis of the deposited data

How the results depend on the processing

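All 10 genes kept a MYC peak in both lists with windows from 1 kb or 10 kb upstream, with the summit required inside the window, and without either replicate (10 to 10). At 1e-20, 9 of 10 did, SNHG12 being the exception. HSF1 moved with its threshold: at 1e-10 the count fell from 4 and 1 to 0 genes in each list and 0 in both, for promoter peaks and for overlap with MYC too. Genes with HSF1 in both lists numbered 1 to 4 when either HSF1 list was left out, so the higher count rests on replicate 1. Promoter peaks in both MYC lists fell from 10 to 6 with summits within 250 bp, and to 8 with the start of the gene record alone. Summits of HSF1 and MYC within 100 bp left 2 genes in replicate 1 and 0 in replicate 2. CACGTG within 100 bp of the stronger MYC summit was at 1 gene, at 4 within 250 bp, at 3 with CACGCG allowed and at 2 with replicate 2 summits, so this count depends on the window. A heat shock element of 2 units, added after the data were seen, raised 0 to 1 gene in HSF1 replicate 1. The median MYC fold enrichment ran from 16.5 to 18.1 and the median rank from 78.7% to 86.1% with single MYC lists. Leaving out either MYC list gave 11 to 18 further SNHG genes and ZFAS1 and 25 to 43 other lncRNA hosts. Leaving out either HSF1 list gave 2 to 3 and 5 to 9 of these, 43 to 47 protein-coding hosts, 1 to 2 box C/D genes, 1 to 2 assembly factors and 1 to 4 decay factors, against 1, 3, 27, 1, 1 and 1 in both lists. Promoter peaks alone left 0 further SNHG genes and ZFAS1, 1 other lncRNA host and 16 protein-coding hosts with HSF1 in both lists. With RefSeq snoRNAs, also added after the data were seen, the HSF1 share of other lncRNA hosts was 7.36% against 4%. The cause of these shifts was not tested beyond what each setting removes. HSF1 and MYC lists were set side by side by replicate number. With the numbers crossed, HSF1 and MYC peaks overlapped at 3 genes instead of 4 for HSF1 replicate 1 and at 1 gene, as before, for HSF1 replicate 2. No paired analysis was possible because no test was run, so a replicate block could not enter one.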

Other observations

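Among ZFAS1 and the other SNHG genes, 20 in all, 9 did not have a MYC peak in both lists. SNHG14, SNHG27 and SNHG30 had no MYC promoter peak in either list, and SNHG27 had an HSF1 promoter peak of 8.53 in HSF1 replicate 1, higher than any HSF1 peak at the 10 hosts. SNHG11, SNHG18, SNHG21, SNHG22, SNHG28 and SNHG31 had a MYC promoter peak in replicate 1 alone, with a fold enrichment of 6.12 to 10.9. ZFAS1 had an HSF1 promoter peak of 9.56 in HSF1 replicate 2 alone. These genes were named after their values were seen.

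RUVBL2, an ATPase of the complex that assembles snoRNPs, had HSF1 promoter peaks of 10.6 and 8.04 and MYC promoter peaks of 26.2 and 15.2 in replicates 1 and 2. SMG8, a regulator of the nonsense-mediated decay kinase SMG1, had HSF1 promoter peaks of 7.78 and 6.18 and a MYC promoter peak of 8.82 in MYC replicate 1 alone. Both were named after their values were seen.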
